A study of Gallus gallus with 5 samples.

Results

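The comparison described here sets 1 array of DT40 cells that lack both H2A.Z isoforms and carry the mutant H2A-H2A.Z against 1 array of the double knockout without a complementing H2A.Z. Its members are the probes marked by the image software as well above background on at least 1 of these arrays. They number 30599 of the 43603 probes that are not controls, with 28388 above background on both arrays, 1622 on the H2A-H2A.Z array alone and 589 on the knockout array alone. The size of a difference between the lines did not enter this choice. Probes above background on 1 array alone did enter through that array, so the choice is not independent of the comparison. Among the probes with a gene name, the members stand for 4362 of 5382 genes, and 4360 of these have a difference after marked spots were left out.

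DT40 is a chicken B cell line derived from a bursal lymphoma. The series has 5 arrays, 1 for each of wild-type clone cl18 (WT), the H2A.Z isoform double knockout (DKO), and the knockout stably expressing H2A.Z.1, 5KR-H2A.Z or H2A-H2A.Z, each called here the line of that name. All cultures received tetracycline at 2 µg/ml for 72 hours, and 100 ng of total RNA per culture was labelled. Tetracycline represses an H2A.Z.1 transgene, so the groups compared share the knockout, the repressible transgene and the drug. By its name the mutant joins H2A and H2A.Z, and the title of the series asks about the N-terminal tail; the labels do not spell out the construct, the promoter that drives it or the number of clones in a line. The labels of the DKO array conflict. Its title and source name give the double knockout, while its description and genotype field give the line that expresses H2A.Z.1, and it is called DKO here by its title.

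H2A.Z is a variant of histone H2A that the SRCAP and p400/TIP60 complexes place into nucleosomes, mostly beside the start sites of active and poised genes. Its N-terminal tail carries lysines that are acetylated at active promoters, and H2A has a tail of different sequence. In B cells, as in other dividing cells, the variant is found at promoters and enhancers and has been tied to transcription, DNA repair and the correct segregation of chromosomes.

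With 1 array per line there was no replicate, no test and no error for any difference, and each value describes these arrays. The arrays of WT, DKO and the H2A.Z.1 line share 1 slide and those of the mutant lines share the other, so for the H2A-H2A.Z line minus DKO slide and line cannot be told apart. Of 43803 spots that are not controls, 29137 were well above background on the DKO array and 30210 on the H2A-H2A.Z array, and none was saturated. The 75th percentile of the processed intensity was 1115 in DKO and 1482 in the H2A-H2A.Z line, and differences in overall brightness were removed by subtracting it on the log2 scale. Repeated spots of 1 probe within an array had a median SD of 0.05 on that scale on both arrays, which covers the array surface and not the cultures. The targeted gene H2AFZ, which encodes H2A.Z.1, was lower in every line made from the knockout than in WT and did not part the lines compared. Its probe A_87_P037084 read 5.87 in WT, 1.11 in DKO and 0.92 in the H2A-H2A.Z line, and A_87_P194348 read 6.17, -0.37 and -0.46. What part of the transcript these probes cover was not known here, so they check neither the construct nor the DKO label, and no probe was named for H2A.Z.2. All 15 B cell markers on the array were well above background in both lines. Of 8 T cell markers 5 were well above background in both lines, and CD4, IL7R and GATA3 were not. The T cell marker CD3D read 6.24 in DKO and 6.08 in the H2A-H2A.Z line, beside 6.86 and 6.66 for the B cell marker CD79B. Of 7 erythroid markers 5 were well above background in both lines, and TAL1 and RHAG were not.

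More genes stood higher than lower in the H2A-H2A.Z line. At least 2-fold differences from DKO were measured for 435 genes higher (9.98% of 4360) and 154 genes lower (3.53%), so that 13.5% of the genes measured were apart and 26.1% of those apart were lower. At 4-fold the counts were 136 higher (3.12%) and 31 lower (0.711%), and at 8-fold 34 higher (0.78%) and 12 lower (0.275%). The median over all genes was -0.13 on the log2 scale, with quartiles of -0.41 and 0.28. The size and the balance of these counts depended on the scale: centring each array on its median moved the all-gene median to -0.33 and gave 338 higher and 280 lower (45.3% lower), whereas scaling to 8 spike-in probes moved it to 0.39 and gave 809 higher and 59 lower (6.80% lower). Normexp background correction, which adds an offset and compresses dim values, gave 255 higher and 99 lower. Asking for genes well above background on both arrays left 356 higher and 127 lower. Over all probes, named or not, 3399 of 30583 were at least 2-fold higher (11.1%) and 1254 lower (4.1%).

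Genes at least 2-fold apart lay mostly in the dimmer part of the range. When genes were ordered by mean level over the 5 arrays and cut into 4 equal groups of 1090, the dimmest group held 202 higher and 76 lower, the next 167 and 39, the next 51 and 27, and the brightest 15 and 12. The median difference passed from 0.08 in the dimmest group through 0.00 and -0.13 to -0.30 in the brightest. The bright genes were therefore close together and a little lower in the H2A-H2A.Z line, a direction that scaling to the spike-in probes turned for the all-gene median. Different probes of 1 gene gave a further reading, and the levels and orders of arrays given for a gene below are those of the probe with the highest mean. Probes too dim to be marked above background in either compared line were left out of this tally. Of 243 higher genes with several remaining probes, 177 had all of these at least 2-fold higher and 8 had an opposite sign among them. Of 83 such lower genes, 50 had all of these at least 2-fold lower and 3 had an opposite sign among them. The higher genes ACOD1, CASP18, CRYAB, HBBA, IL17D and TLR4 had only 1 remaining probe each and did not enter. Each of them had a dim probe of the opposite sign, with lowest differences between -0.32 and -0.08.

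**Figure D1:**
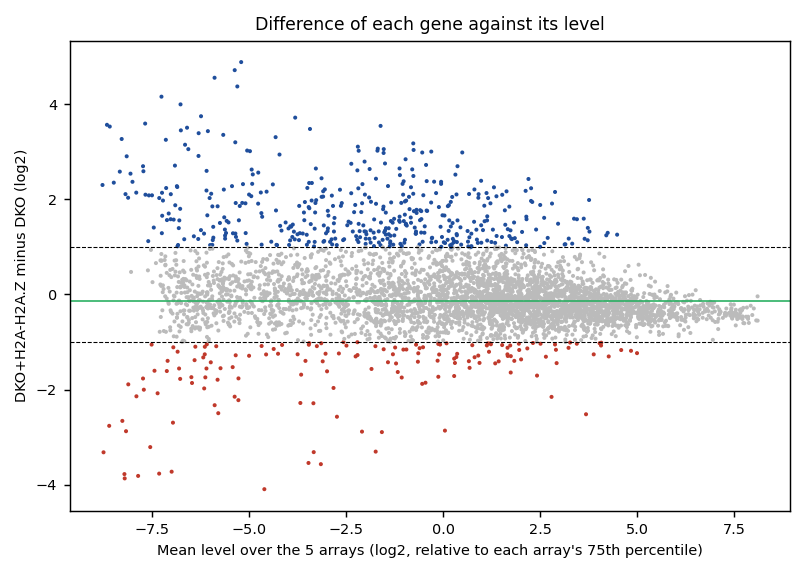
Log2 difference of each gene between the H2A-H2A.Z line and DKO on the vertical axis against its mean log2 level over the 5 arrays, relative to each array's 75th percentile; dashed lines mark 2-fold, and the solid line marks the all-gene median of -0.13. Blue points are the 435 genes at least 2-fold higher and red points the 154 lower, most of them left of the brightest group; scaling to spike-in probes moves the median to 0.39.

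Among the measured DNA repair genes, NBN had the largest difference in the higher direction. NBN encodes nibrin, a subunit of the MRE11 complex that senses double-strand breaks. Its level was -3.64 in DKO and -0.58 in the H2A-H2A.Z line, with -1.21 in WT, -0.77 in the H2A.Z.1 line and -1.45 in the 5KR-H2A.Z line. DKO was thus the lowest array by a wide margin and the H2A-H2A.Z line the highest, 8.31-fold above DKO. RAD51D, a protein of homologous recombination, read 0.61 in DKO and 3.04 in the H2A-H2A.Z line, beside 2.99 in WT, 2.32 in the H2A.Z.1 line and 2.03 in the 5KR-H2A.Z line. Both of its probes were at least 2-fold apart, and the fold over DKO was 5.38. DCLRE1C encodes Artemis, the nuclease that opens hairpin ends in V(D)J recombination. None of its probes was well above background in DKO, at -6.69, while it read -4.17 in the H2A-H2A.Z line, -4.58 in WT, -4.33 in the H2A.Z.1 line and -4.75 in the 5KR-H2A.Z line. FANCC, of the Fanconi anaemia core complex, was 2.52-fold higher by the probe read and under 2-fold by its other probe. These were the 4 of 31 measured DNA repair genes at least 2-fold higher, and none was lower. The list as a whole had a median of -0.05, which lay 0.08 above that of all genes (0.06 to 0.12 under the alternatives), so 4 of 31 stands beside 9.98% of all genes.

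Some genes had no probe well above background in 1 of the compared lines, and their fold is given as a bound. The bound sets the level on the bright array against the higher of the dim probe's own level and the lowest level well above background on the dim array, which was -6.93 in DKO and -7.11 in the H2A-H2A.Z line. DCLRE1C was at least 5.75-fold higher by this rule, with both probes apart. Such genes are dim, and with normexp correction each of the 6 greatest bounds in either direction was under 2-fold.

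**Figure D2:**
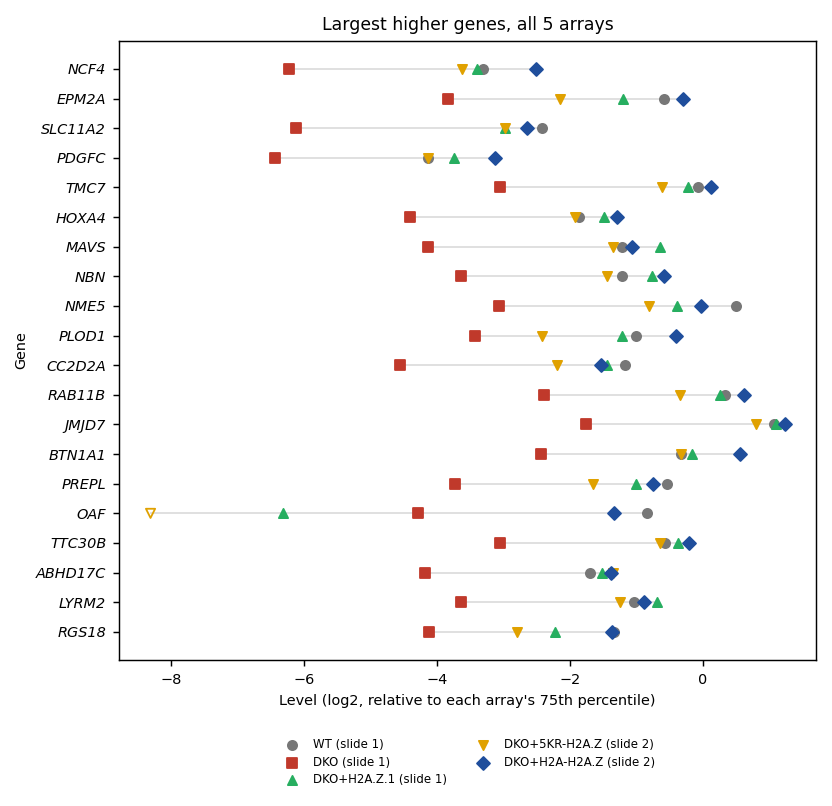
Log2 level, relative to each array's 75th percentile, of the genes with the largest differences above DKO among those well above background in both lines, 1 line per gene and 1 point per array. For most genes the DKO point, such as -3.84 for EPM2A, stands apart at the low end while the H2A-H2A.Z line, at -0.29 for EPM2A, lies near or beyond the WT point.

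Genes of innate sensing and of the caspase system included several large differences. MAVS, the mitochondrial adaptor that relays signals of cytosolic RNA sensors such as MDA5, stood at -4.13 in DKO and -1.07 in the H2A-H2A.Z line, with -1.22 in WT, -0.64 in the H2A.Z.1 line and -1.36 in the 5KR-H2A.Z line. Only DKO stood apart by this probe, 8.37-fold below the H2A-H2A.Z line, and 4 of 5 probes were at least 2-fold apart. Of these 4, A_87_P014418 was not well above background on any array and A_87_P120728 was not in DKO. The remaining probe, A_87_P230488, was well above background on all 5 arrays and differed by only 0.51. TLR3, the endosomal receptor for double-stranded RNA, read -6.65 in DKO and -4.32 in the H2A-H2A.Z line (5.01-fold), against -3.18 in WT, -5.26 in the H2A.Z.1 line and -5.18 in the 5KR-H2A.Z line. All complemented lines lay between DKO and WT. TLR1A, a chicken receptor of the TLR1 family that senses lipopeptides, had another order. It was not well above background in WT and read -4.90 in DKO, -3.77 in the H2A.Z.1 line, -3.17 in the 5KR-H2A.Z line and -2.74 in the H2A-H2A.Z line. The H2A-H2A.Z line was highest by this probe, and the 5KR-H2A.Z line by the other 2 probes. ZC3HAV1, which encodes the antiviral zinc finger protein ZAP, was also higher than in DKO by 2.85-fold, at -3.37 against -4.89, with WT lowest at -5.68. TLR4, the receptor for lipopolysaccharide, was 2.16-fold higher by 1 of its 2 probes and past 2-fold in 5 of 10 settings; the summed level of the 10 myeloid markers was 3.64 in the H2A-H2A.Z line and 3.20 in DKO, and their part in this value was not tested.

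In the opposite direction, IRF1, a transcription factor of the interferon response, read -2.20 in DKO and -4.48 in the H2A-H2A.Z line, a 4.87-fold difference seen by both probes. It stood at -2.84 in WT, -4.38 in the H2A.Z.1 line and -4.48 in the 5KR-H2A.Z line, so the 3 complemented lines sat together below WT and DKO. Of 23 measured genes for RNA sensing, Toll-like receptors and interferon, 6 were at least 2-fold higher and 3 lower, where 9.98% and 3.53% of all genes were. The median of this list was 0.30, which is 0.44 above all genes (0.27 to 0.55 under the alternatives). The lower members were IRF1, IRF4 and IRF2. The last pair, named because the count is small, had differences of -1.30 and -1.25.

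CRADD, an adaptor that joins RIP1 or the PIDD protein to caspase-2, gave the largest difference of all in its list. It was not well above background in DKO at -8.86, read -3.97 in the H2A-H2A.Z line, and was at least 7.75-fold higher by the bound. WT read -3.77, the H2A.Z.1 line -4.27 and the 5KR-H2A.Z line -5.15, so DKO alone lacked a signal above background. CASP8, the initiator caspase of death receptors, read -0.56 in DKO and 1.55 in the H2A-H2A.Z line, against 1.17 in WT, 1.13 in the H2A.Z.1 line and 1.26 in the 5KR-H2A.Z line. It was 4.31-fold higher with both probes apart, and DKO was again the only low array. BIK and BID, BH3-only proteins that promote cell death, went the other way. BIK stood at 0.33 in DKO and -1.30 in the H2A-H2A.Z line (3.10-fold lower, both probes), with -1.79 in WT, -1.63 in the H2A.Z.1 line and -1.45 in the 5KR-H2A.Z line. BID was 2.40-fold lower by 1 of 2 probes and passed 2-fold in 8 of 10 settings. In all, 7 of 24 measured BCL2 family, caspase and death receptor genes were at least 2-fold higher and 2 lower, beside 9.98% and 3.53% of all genes. The higher count includes CRADD and CASP18, which were not well above background in DKO and entered through the H2A-H2A.Z array. CASP18 had a bound of only 1.61-fold and turned sign with normexp correction (-0.09). Their median was -0.00, or 0.13 above all genes, and it ranged from -0.13 to 0.16 around that of all genes under the alternatives, so the median had no settled direction.

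Genes for the cilium and its transition zone formed the list with the highest median. Of its 55 symbols only 13 had a named probe on the array, and all 13 were measured. Of these, 6 were at least 2-fold higher and none lower, beside 9.98% and 3.53% of all genes, and the median was 0.93. That is 1.06 above all genes, and it stayed between 0.87 and 1.09 above them under the alternatives. NME5, a protein of motile cilia and the sperm flagellum, read -3.07 in DKO and -0.03 in the H2A-H2A.Z line (8.21-fold), with 0.49 in WT, -0.39 in the H2A.Z.1 line and -0.81 in the 5KR-H2A.Z line. CC2D2A, a component of the transition zone at the base of the cilium, read -4.55 and -1.53 in the same lines (8.12-fold), against -1.17 in WT, -1.44 in the H2A.Z.1 line and -2.19 in the 5KR-H2A.Z line. In both genes DKO was far below the other 4 arrays. IFT27 and IFT81 encode subunits of the intraflagellar transport complex that carries cargo along the cilium. IFT27 was 4.77-fold higher with 4 of 4 probes apart, from -2.57 in DKO to -0.31, and IFT81 was 2.77-fold higher with 3 of 3 probes apart, from -1.93 to -0.45. BBS4, a subunit of the BBSome coat that moves membrane proteins into cilia, was 3.57-fold higher with 2 of 3 probes apart. A further transport gene outside this list, TTC30B, which encodes the intraflagellar subunit IFT70, was 7.17-fold higher at -0.21 against -3.05. On the slide shared with the 5KR-H2A.Z line, the median of the list in the H2A-H2A.Z line was 0.21 above that line.

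Among regulators of transcription and chromatin, HIF1A gave the best supported difference. It encodes the oxygen-regulated subunit of hypoxia-inducible factor, and all 7 of its probes were at least 2-fold higher, with differences from 1.89 to 2.49. The probe read stood at -2.67 in DKO and -0.18 in the H2A-H2A.Z line, with -0.35 in WT, -0.13 in the H2A.Z.1 line and -0.50 in the 5KR-H2A.Z line. DKO was therefore 5.62-fold below the H2A-H2A.Z line, and the other lines were close to each other. HIF1A was the only 1 of 11 measured hypoxia genes past 2-fold, where 13.5% of all genes were. The median of that list lay 0.12 below all genes, with either sign under the alternatives. JMJD7, a jumonji-domain hydroxylase, read -1.75 in DKO and 1.23 in the H2A-H2A.Z line (7.92-fold, both probes), beside 1.07 in WT and 0.81 in the 5KR-H2A.Z line, with the H2A.Z.1 line between WT and the H2A-H2A.Z line. KDM5B, a demethylase of histone H3 lysine 4, was 3.69-fold higher at -1.43 against -3.31. Here the H2A.Z.1 line at -2.72 and the 5KR-H2A.Z line at -2.78 were close to DKO, and WT at -1.09 was close to the H2A-H2A.Z line. ING3, a subunit of the TIP60 acetyltransferase complex, was 2.34-fold higher. KDM5B was the 1 of 18 Polycomb, DNA methylation and histone modifier genes apart, and ING3 the 1 of 14 genes for H2A.Z exchange and chaperones. None of 8 measured histone genes was 2-fold apart. The counts of these 3 lists stand beside the 13.5% of all genes apart.

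ELL2, an elongation factor of RNA polymerase II that plasma cells use to switch immunoglobulin processing, had the highest bound. It was not well above background in DKO at -6.94 and read -3.91 in the H2A-H2A.Z line, at least 8.08-fold higher. WT was higher still at -2.12, while the H2A.Z.1 line read -6.33 and the 5KR-H2A.Z line -5.94. HOXA4, a homeobox factor of the anterior HOXA cluster, was 8.62-fold higher with both probes apart, at -1.30 against -4.40 in DKO, -1.87 in WT, -1.49 in the H2A.Z.1 line and -1.93 in the 5KR-H2A.Z line. MEIS2, a HOX cofactor, was 2.79-fold higher. Among 32 measured HOX and developmental factors 3 were at least 2-fold higher and 1, SNAI1, a repressor of epithelial genes, was lower, close to the 9.98% and 3.53% of all genes. SNAI1 was not well above background in the H2A-H2A.Z line and was at least 3.09-fold lower by the bound, but -0.54 with normexp correction. ORC3, a subunit of the origin recognition complex, was 2.34-fold higher with 3 of 3 probes apart and was the only 1 of 29 G1/S and replication genes past 2-fold. None of 25 mitotic genes was, and both counts stand beside the 13.5% of all genes apart. NFKB1, the p105 and p50 subunit of NF-kappa-B, was 2.16-fold higher and past 2-fold in 8 of 10 settings. It was the 1 of 17 B cell receptor signalling genes apart, beside 13.5% of all genes.

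The remaining largest differences above DKO concerned signalling, transport and metabolism. NCF4, the p40phox subunit of the phagocyte oxidase, read -6.22 in DKO and -2.51 in the H2A-H2A.Z line, a 13.2-fold difference and the largest among genes above background on both arrays, with -3.30 in WT, -3.40 in the H2A.Z.1 line and -3.63 in the 5KR-H2A.Z line. EPM2A encodes laforin, a glycogen phosphatase, and was 11.7-fold higher with both probes apart. It read -3.84 in DKO and -0.29 in the H2A-H2A.Z line, beside -0.58 in WT, -1.21 in the H2A.Z.1 line and -2.14 in the 5KR-H2A.Z line. In both genes DKO was the lowest array. The H2A-H2A.Z line was the highest by these probes, while the other EPM2A probe, not well above background in DKO, had WT highest. SLC11A2, the divalent metal transporter DMT1, was 11.2-fold higher, at -2.65 against -6.13 in DKO and close to -2.42 in WT, -2.98 in the H2A.Z.1 line and -2.97 in the 5KR-H2A.Z line. PDGFC, a ligand of the platelet-derived growth factor receptors, was 9.90-fold higher at -3.13 against -6.43. TMC7, a member of the transmembrane channel-like family, was 9.04-fold higher with 3 of 3 probes apart. PLOD1, a collagen lysyl hydroxylase, was 8.13-fold higher, at -0.40 against -3.42 in DKO and -2.42 in the 5KR-H2A.Z line, so here the lines with mutant H2A.Z lay far from each other.

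RAB11B, a GTPase of recycling endosomes, was 8.02-fold higher at 0.62 against -2.39, and WT at 0.33, the H2A.Z.1 line at 0.25 and the 5KR-H2A.Z line at -0.34 were nearer to the former. RAB40B, a Rab GTPase that recruits a ubiquitin ligase, was at least 3.61-fold higher by the bound, though normexp correction left a difference of 0.19. The other 16 of 18 measured Rab genes were within 2-fold, so 2 of 18 were higher, beside 9.98% of all genes. BTN1A1, a butyrophilin of the immunoglobulin superfamily, was 7.91-fold higher, PREPL, a peptidase-like serine hydrolase, 7.86-fold, and ABHD17C, a depalmitoylase, 6.93-fold. LYRM2, a mitochondrial LYR-motif protein, was 6.75-fold higher, and RGS18, a regulator of G protein signalling in blood cells, 6.71-fold. HEXA, the alpha subunit of lysosomal beta-hexosaminidase, was 4.76-fold higher with 2 of 3 probes apart. GUSB, lysosomal beta-glucuronidase, was 2.45-fold lower. The 25 measured lysosome and autophagy genes held no others past 2-fold, where 13.5% of all genes were apart. CDH2, the N-cadherin of cell adhesion, was at least 6.49-fold higher with both probes apart: it was not well above background in DKO at -8.78 and read -4.23 in the H2A-H2A.Z line, -2.92 in WT and -6.32 in the 5KR-H2A.Z line. LGALSL, a galectin-like protein, was at least 5.77-fold higher, and its level of -4.40 lay near -4.54 in WT, -4.20 in the H2A.Z.1 line and -4.33 in the 5KR-H2A.Z line.

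Fewer genes were lower, and 4 of the 15 measured amino acid and stress genes were among them, beside 3.53% of all genes. PSPH, the last enzyme of serine synthesis, read 4.42 in DKO and 2.26 in the H2A-H2A.Z line, with 2.10 in WT, 2.41 in the H2A.Z.1 line and 2.76 in the 5KR-H2A.Z line. DKO was the only high array, 4.45-fold above the H2A-H2A.Z line. CHAC1, which breaks down glutathione, was 3.26-fold lower by 4 of 4 probes. It stood at 3.71 in DKO and 2.00 in the H2A-H2A.Z line, close to 2.34 in WT, 2.03 in the H2A.Z.1 line and 2.00 in the 5KR-H2A.Z line. XBP1, a transcription factor of the unfolded protein response and of plasma cells, had another order. It was 2.35-fold lower by 1 of 2 probes and past 2-fold in 7 of 10 settings, at 4.27 against 5.51 in DKO, 4.95 in WT, 5.05 in the H2A.Z.1 line and 5.18 in the 5KR-H2A.Z line. The H2A-H2A.Z line was the lowest of the 5 by this probe, and WT was the lowest by the other. SLC7A5, the LAT1 transporter of large neutral amino acids, was 2.10-fold lower with 4 of 4 probes apart and past 2-fold in 6 of 10 settings. The list held none higher, beside 9.98% of all genes, and their median of -0.50 was 0.37 below all genes (0.29 to 0.42 below under the alternatives, though scaling to spike-in probes put the median itself at 0.02).

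The immediate early genes FOS and JUN, which encode the subunits of the AP-1 transcription factor, were both lower. JUN read 2.55 in DKO and 1.14 in the H2A-H2A.Z line (2.65-fold, both probes), against 0.92 in WT, 1.34 in the H2A.Z.1 line and 1.20 in the 5KR-H2A.Z line. FOS read -1.97 and -4.26 in the compared lines (4.88-fold), with -3.58 in WT, -4.00 in the H2A.Z.1 line and -2.90 in the 5KR-H2A.Z line. The other FOS probe differed by only -0.01. These were 2 of 8 measured immediate early genes, beside 3.53% of all genes lower. The median of the 8 was -0.64, which is 0.50 below all genes (0.45 to 0.53 below under the alternatives). Scaling to spike-in probes put the median itself at -0.11. Only 1 of the 8 lay above the all-gene median of -0.13.

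Other large lower differences came from genes outside the lists. FABP5, a fatty acid carrier, was 9.96-fold lower at -6.01 against -2.70 in DKO, -4.99 in WT, -1.80 in the H2A.Z.1 line and -1.16 in the 5KR-H2A.Z line. ENPP2 encodes autotaxin, which makes lysophosphatidic acid. It was 7.44-fold lower with both probes apart, at -2.65 against 0.25 in DKO, and DKO was the highest array, with -2.02 in WT, -2.09 in the H2A.Z.1 line and -1.38 in the 5KR-H2A.Z line. HPGDS, a prostaglandin D synthase, was 3.63-fold lower and well above background only in these lines. NPL, a lyase of sialic acid breakdown, was 3.68-fold lower with both probes apart, again with DKO as the only high array. The other large lower genes were THRB, a thyroid hormone receptor (5.65-fold, 1 of 2 probes), MB, myoglobin (4.44-fold), OCM3, a parvalbumin-like calcium binder (3.91-fold, 1 of 2 probes), and FAM26E, a member of the calcium homeostasis modulator family (3.62-fold, 2 of 3 probes).

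**Figure D3:**
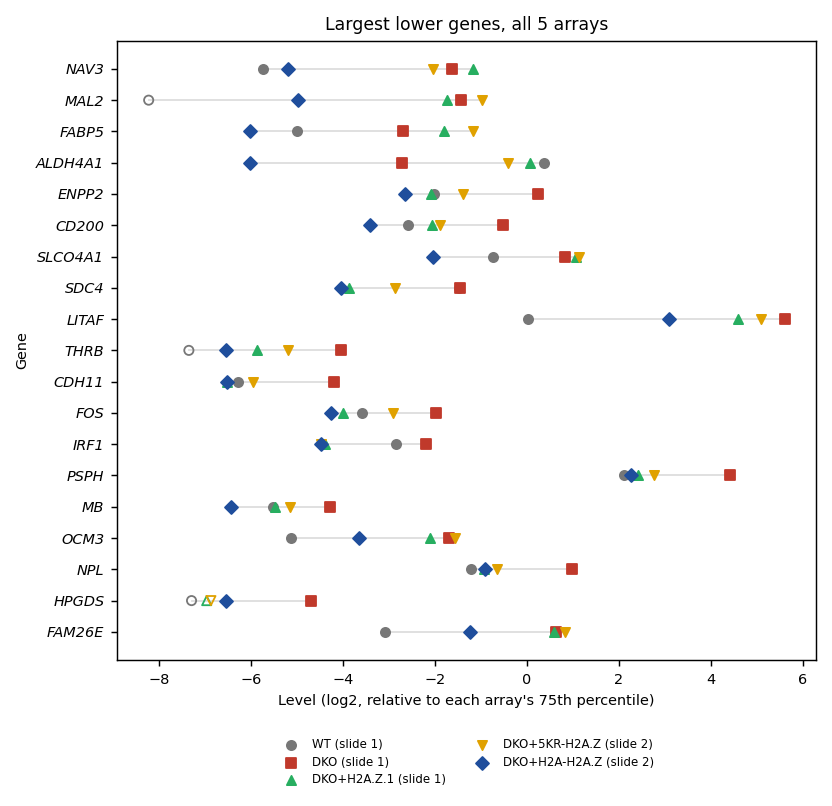
Log2 level, relative to each array's 75th percentile, of the genes with the largest differences below DKO among those well above background in both lines; filled points are well above background and open points are not. ENPP2 and PSPH show DKO alone at the high end (0.25 and 4.42), whereas FABP5 and SLCO4A1 show the H2A-H2A.Z line at the low end (-6.01 and -2.04).

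The next lower genes encode surface and matrix proteins. CD200, an inhibitory ligand of myeloid cells, was 7.38-fold lower, at -3.40 against -0.52 in DKO, -2.58 in WT, -2.07 in the H2A.Z.1 line and -1.89 in the 5KR-H2A.Z line. SDC4, a heparan sulphate proteoglycan, was 5.94-fold lower at -4.03 and lay near -3.86 in the H2A.Z.1 line, with the 5KR-H2A.Z line at -2.85 and WT (-1.48) and DKO (-1.46) close together at the top. CDH11, a mesenchymal cadherin, was 5.02-fold lower with 3 of 3 probes apart, at -6.51 against -4.18. COL20A1, a collagen of the fibril-associated class, read -3.94 in DKO and -5.63 in the H2A-H2A.Z line (3.22-fold lower), with WT far above both at -0.56. COL1A2, a chain of type I collagen, was 2.67-fold lower, and past 2-fold by 3 of 5 probes and in 8 of 10 settings. The summed level of the 10 fibroblast markers, of which it is 1, was 0.38 in DKO and -0.64 in the H2A-H2A.Z line. DCN, LUM, TAGLN, PDGFRA and THY1 were not well above background in either, and the part of the fibroblast markers in the COL1A2 value was not tested. COL1A2 was the only 1 of the 5 measured fibroblast markers below 0: the other 4 lay between 0.06 and 0.63, and the median was 0.14. The adhesion and matrix list held 3 higher and 3 lower of 34 measured genes, beside 9.98% and 3.53% of all genes, and its median lay 0.01 above all genes, with either sign under the alternatives.

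The bounds in the lower direction came from genes that were dim in DKO. With normexp correction each gene of this paragraph was under 2-fold, with differences between -0.87 and -0.72. ANO3, of the anoctamin family of channels and scramblases, was at least 3.92-fold lower by 1 of 2 probes. That probe read -5.13 in DKO and was not well above background at -7.36 in the H2A-H2A.Z line, while WT stood at -2.41. The other ANO3 probe differed by -0.81 and was well above background in WT alone. OSTN, which encodes the muscle and bone peptide musclin, was at least 3.62-fold lower with both probes apart and was well above background in DKO alone of the 5 arrays. K123 was at least 3.59-fold lower by 1 of 2 probes, and CLEC3A, a C-type lectin of cartilage, at least 3.12-fold lower.

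The 5KR-H2A.Z array shares a slide with the H2A-H2A.Z line, so the slide cannot set a difference between them. Within this slide 94 genes were at least 2-fold higher in the H2A-H2A.Z line (2.16% of 4355) and 70 lower (1.61%), and normexp correction left 20 and 25. The genes described next stood furthest from both DKO and the 5KR-H2A.Z line in 1 direction. The comparisons share the H2A-H2A.Z array, so an unusual value there enters both.

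APP, the amyloid precursor protein, was the clearest case in the higher direction. It read -3.11 in the H2A-H2A.Z line and -3.65 in WT, against -7.82 in DKO, -6.63 in the H2A.Z.1 line and -5.63 in the 5KR-H2A.Z line. WT and the H2A-H2A.Z line were thus the high arrays. The probe read was not well above background in DKO, so its distance from DKO has no measured size. The only APP probe well above background in both lines differed by 2.42 on the log2 scale. OAF, a secreted protein named after a fly gene, read -0.83 in WT and -1.34 in the H2A-H2A.Z line, against -4.28 in DKO, -6.31 in the H2A.Z.1 line and no level well above background in the 5KR-H2A.Z line. Its fold over DKO was 7.68. ELOVL7, an elongase of long fatty acids, was at least 4.73-fold above DKO and well above background only in WT at -6.76 and in the H2A-H2A.Z line at -4.68. ACOD1, the itaconate-producing enzyme of activated macrophages, was by the probe read likewise above background only in WT (-5.74) and the H2A-H2A.Z line (-5.50). It was past 2-fold by 1 of 4 probes and in 8 of 10 settings, and normexp correction left a difference of 0.25. Probes A_87_P135178 and A_87_P285843 were above background in WT alone. They read -8.06 and -9.46 in the H2A-H2A.Z line, against -8.74 and -9.24 in DKO. SPIA4, GRPR, OPN2SW and IL17D were well above background in the H2A-H2A.Z line alone, between -6.38 and -5.58, which is near the lowest level the arrays mark as above background. CER1 and TREMB2 were similarly dim.

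In the lower direction, FABP5, MAL2, NAV3, SLCO4A1, LITAF, ALDH4A1, MEP1A, NEK6 and ANO3 stood below both lines. MEP1A, a metalloprotease of brush borders, and NEK6, a mitotic kinase, were dim, with bounds of at least 2.72-fold and 2.97-fold by 1 of 2 probes each. Their differences were -0.83 and -0.71 with normexp correction. MAL2, a protein of apical transport, was 11.7-fold below DKO with both probes apart: it read -4.98 in the H2A-H2A.Z line against -1.44 in DKO, -1.74 in the H2A.Z.1 line and -0.97 in the 5KR-H2A.Z line, and was not well above background in WT. LITAF, a regulator of endosomal sorting and of TNF transcription, read 3.09 against 5.60 in DKO, 4.59 in the H2A.Z.1 line and 5.09 in the 5KR-H2A.Z line, with WT at 0.03. It was 5.73-fold below DKO by both probes. In both genes the H2A-H2A.Z line lay between WT and the other lines. NAV3, a neuron navigator protein, read -5.19 against -1.62 in DKO and -2.03 in the 5KR-H2A.Z line, near -5.74 in WT, and 3 of 6 probes were 2-fold apart. SLCO4A1, a transporter of organic anions and thyroid hormone, read -2.04 against 0.82 in DKO, 1.06 in the H2A.Z.1 line and 1.13 in the 5KR-H2A.Z line (7.28-fold below DKO, 4 of 5 probes), with WT between at -0.74. ALDH4A1, a mitochondrial enzyme of proline breakdown, stood apart from every other array. It was -6.02 in the H2A-H2A.Z line, against -2.71 in DKO, 0.38 in WT, 0.07 in the H2A.Z.1 line and -0.41 in the 5KR-H2A.Z line, and its fold below DKO was 9.88 by its only probe.

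**Figure D4:**
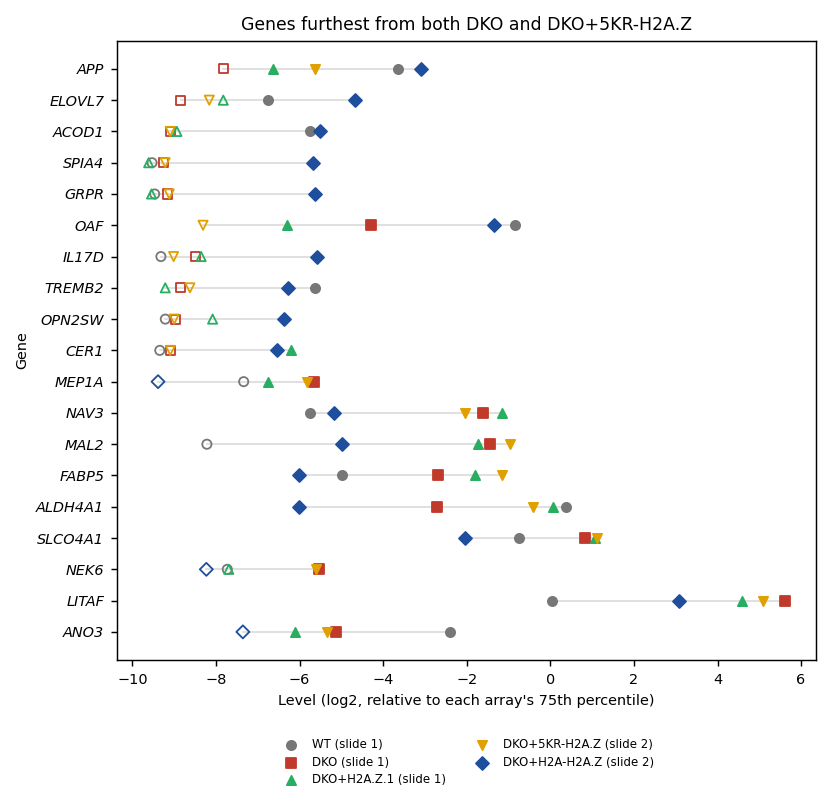
Log2 level, relative to each array's 75th percentile, on all 5 arrays for the genes furthest from both DKO and the 5KR-H2A.Z line in the same direction; filled points are well above background and open points are not. APP has WT (-3.65) and the H2A-H2A.Z line (-3.11) at the high end, and ALDH4A1 has the H2A-H2A.Z line (-6.02) alone at the low end.

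The genes apart between the H2A-H2A.Z line and DKO were also read on the 3 arrays that the rule did not use, as the level of the 5KR-H2A.Z line less the average of the lines with intact H2A.Z, WT and the H2A.Z.1 line. This reading was chosen after the data were seen. The 5KR-H2A.Z array is on the other slide from WT and the H2A.Z.1 line, so slide and line cannot be told apart here either. Among the 380 of 435 higher genes well above background on all of those 3, the median was -0.27 (quartiles -0.55 and -0.06), and 301 of them, or 79.2%, were below 0. Over all 4163 genes the median was 0.08 and 36.9% were below 0. Among 119 of the 154 lower genes the median was 0.31 (quartiles 0.15 and 0.58), and 99 of them were above 0. WT and the H2A.Z.1 line also differed from each other in these genes. In the higher genes, WT minus the H2A.Z.1 line had a median of 0.12, with 36 at least 2-fold higher (9.47%) and 10 lower (2.63%). In the lower genes the median was -0.23, with 4 higher (3.36%) and 19 lower (16.0%). For the same difference over all 4163 genes the median was 0.03, with 2.14% higher and 1.15% lower. Being below or above the mean of WT and the H2A.Z.1 line therefore does not place the 5KR-H2A.Z line below or above each of them. Relative to all genes the medians for the 5KR-H2A.Z line were -0.35 and 0.23, and under the alternatives they ranged from -0.35 to -0.28 and from 0.16 to 0.27. Differences of 2-fold or more between the 5KR-H2A.Z line and that mean were few. Of the 380, 17 were lower (4.47%, against 0.577% of all genes) and 5 higher (1.32%, against 0.937%). Of the 119, 13 were higher (10.9%) and 2 lower (1.68%), against the same shares of all genes. All genes were not matched to these for level, and the part of level in the shares was not tested.

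Taken over all 30 lists, 536 genes were measured, of which 41 were at least 2-fold higher (7.65%) and 18 lower (3.36%), near the 9.98% and 3.53% of all genes. The housekeeping lists showed few differences, but all genes were not matched to them for level. In the brightest group of 1090 genes, 15 were at least 2-fold higher and 12 lower. The part of level in the low counts of these lists was not tested. All 41 cytosolic ribosomal protein genes lay between -0.61 and -0.26, a narrow shift 0.31 below the all-gene median. The brightest group as a whole had a median of -0.30, and the part of level in the shift was not tested. The distance below the all-gene median shrank to 0.00 under 1 alternative, and scaling to spike-in probes put the median of the 41 genes at 0.08. None of 23 oxidative phosphorylation, 17 glycolysis, 13 cholesterol synthesis or 11 MYC target genes was 2-fold apart. Of 23 proteasome genes PSMB5, a catalytic subunit, was 2.04-fold lower and past 2-fold in 6 of 10 settings. CRYAB, a small heat shock protein, and MT4, a metallothionein, were dim and turned sign under normexp correction, and HBBA, a beta globin, turned sign with the median over its probes.

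**Figure D5:**
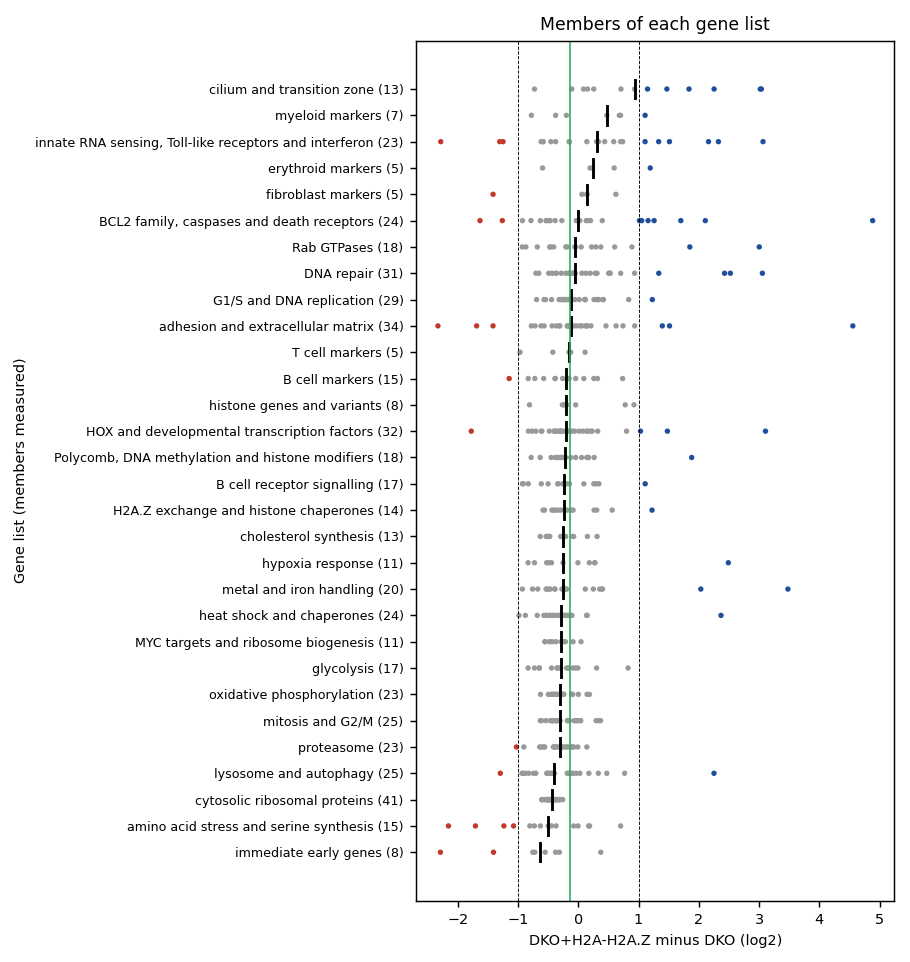
Median log2 difference between the H2A-H2A.Z line and DKO for each of the 30 gene lists, with its measured members as points; dashed lines mark 2-fold and the solid line the all-gene median of -0.13. The cilium list has the highest median at 0.93 and the immediate early list the lowest at -0.64; under scaling to spike-in probes the all-gene median is 0.39 and the medians of most lists with a negative value turn positive.

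Neighbours on the chromosome were read from the order of genes in RefSeq's table. Of 1365 pairs of adjacent protein-coding genes with both members measured, 23 had both at least 2-fold apart. In 12 of these both were higher, in 2 both lower, and in 9 the members went opposite ways. They are counts of pairs, whereas the 9.98% of all genes higher and 3.53% lower are shares of single genes and not a like measure. Whether neighbours were apart together more often than unrelated pairs was not tested. CASP18 and CASP8 were 1 higher pair, though CASP18 is dim and has a bound of only 1.61-fold. MPST and TST, which encode the sulphurtransferases mercaptopyruvate sulphurtransferase and rhodanese, were another, with differences of 2.43 and 1.51. MPST was not well above background in WT and read -1.56 in DKO, 0.64 in the H2A.Z.1 line, 0.76 in the 5KR-H2A.Z line and 0.87 in the H2A-H2A.Z line. HAVCR1 and TIMD4, of the TIM family of phosphatidylserine receptors, were a lower pair, at -1.45 and -1.26. These pairs were chosen after their values were seen.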

How the data were processed

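Chicken DT40 RNA was hybridised to 5 one-colour arrays. Per the file headers, the authors' images were quantified in Agilent Feature Extraction, version 11.5.1.1, and the deposited processed signal is a spot intensity, linear and less its background. The authors' value table, also deposited as intensity, served as an alternative. Here log2 values of the deposited signals were set relative to the 75th percentile over spots that are not controls on that array, marked spots were left out and spots of 1 probe averaged. Probes were named through their RefSeq accession in RefSeq's table for GRCg7b, which held 11935 of 43603, and a gene was read from its probe with the highest mean over the 5 arrays. The files' build was not that of the table, so no coordinates are given. A count takes genes at least 2-fold apart, and no test was possible with 1 array per group.

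Members, lists and tests were chosen with earlier results of these data known. Named genes were the 20 largest differences in each direction measured on both arrays, the 6 greatest bounds each way, at most 5 genes past 2-fold from any list, the 10 in each direction furthest from DKO and the 5KR-H2A.Z line, and H2AFZ; some genes that the rule names are not reported here, and genes outside it are given as chosen afterwards. Of 1062 list symbols 985 were found in the gene table, 5 of them under another name. Alternatives were normexp on the median spot and background intensity (offset 50), quantile, median, cyclic loess and spike-in scaling, the authors' table, filters on dim probes, marked spots kept, the median over probes, and thresholds of 1.5-fold and 3-fold. The counting was tested on simulated data. Tools were Python 3.11.15, numpy 2.4.6, pandas 2.3.3, matplotlib 3.10.9, R 4.3.3 and limma 3.58.1.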

Additional observations from a re-analysis of the deposited data

How the results depend on the processing

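The number of arrays and the dimness of many genes limit these values, and no replicate error exists. No paired analysis was possible because each line has 1 array. Normexp correction gave 354 genes apart from DKO (255 higher, 99 lower), 1863 probes (1306 and 557) and 45 genes apart from the 5KR-H2A.Z line (20 and 25). Median centring gave 280 genes and 2181 probes lower. Spike-in scaling gave 809 genes higher and 59 lower, 7026 probes (6546 and 480) and 147 genes above the 5KR-H2A.Z line. Asking for background on both arrays left 93 genes apart from the 5KR-H2A.Z line (50 and 43). With no filter there were 240 genes and 2056 probes lower, and 291 genes apart from the 5KR-H2A.Z line (146 and 145). At 1.5-fold the counts were 1286 genes (714 and 572), 10005 probes (5664 and 4341) and 434 genes against the 5KR-H2A.Z line (244 and 190). At 3-fold they were 267 (214 and 53), 2118 (1672 and 446) and 75 (42 and 33). The other counts under these settings, quantile, cyclic loess, the authors' table, marked spots kept and the median over probes stayed within 1.5 times. Of 96 named genes past 2-fold, 49 were so in all 10 settings, 35 were lost in 1 and 12 in more. The filters on dim probes are among the 10 but leave the value of a named gene unchanged, so they could lose none. A gene dim in 1 of the lines thus counts as past 2-fold there. This holds also for the tallies of settings given for single genes, which therefore overstate how far a gene was tried. Normexp turned CASP18 (-0.0866), CER1 (-0.0899), CRYAB (-0.0337) and MT4 (-0.0251), and the median over probes turned HBBA (-0.0596). The cause was not tested. The planned promoter features were not run, as no promoter table was used.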
